A study of Mus musculus with 10 samples.

Results

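Tab2 and the TAK1 to NF-kB signalling route were examined in mouse liver after miR-122, a microRNA that hepatocytes make in large amounts, had been blocked by an antisense oligonucleotide (ASO). The route was represented by 10 genes, namely Tab2, Tab1, Map3k7, Traf6, Chuk, Ikbkb, Ikbkg, Nfkb1, Rela and Nfkbia. Members were the probes that the array annotation assigned to 1 of these symbols alone, and 9 of the 36088 tested probes met this rule, covering 8 of the 10 genes. Ikbkb had 2 probes and the other 7 genes had 1 each. Chuk and Nfkb1 had no single-gene probe in that annotation and were not analysed here. Tab2 was picked because its level in ASO livers was about 4-fold below that in saline livers, so its values in this contrast are a description and carry no test.

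The study used 10 mice with 1 one-colour CodeLink array per liver. In the ASO group, 5 male C57Bl/6 mice were injected intraperitoneally with the miR-122 ASO, a 2′-O-methoxyethyl phosphorothioate oligonucleotide, over 4 weeks, with 2 injections of 50 mg/kg each week. In the saline group, 5 mice, whose sex and strain the labels do not state, were given saline on the same schedule. Livers of both groups were taken 2 days after the last dose. Saline was the only control, so the oligonucleotide chemistry and the loss of miR-122 cannot be told apart.

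Cells use this route to turn signals from interleukin-1, Toll-like and tumour necrosis factor receptors into transcription. The ubiquitin ligase TRAF6 builds polyubiquitin chains, TAB2 reads those chains and brings in the kinase TAK1 (gene Map3k7) together with its activator TAB1, and TAK1 then switches on the I-kB kinase (IKK), made of the catalytic subunits IKKα (Chuk) and IKKβ (Ikbkb) and the scaffold NEMO (Ikbkg). IKK marks I-kBα (Nfkbia) for destruction, which releases NF-kB dimers such as p65 (Rela) with p50 (Nfkb1) into the nucleus. TAK1 also starts the JNK and p38 MAP kinase branch. In liver the route is active in hepatocytes and in Kupffer cells, and NF-kB switches on its own inhibitors, I-kBα and A20 (Tnfaip3), as feedback.

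Values are the deposited array intensities, which are relative and linear, with array medians between 1.03 and 1.05. Intensities of different probes cannot be set against each other. Differences are log2 values, ASO minus saline, after values below the 10th percentile of positive intensities (0.192) had been raised to it, from a limma fit over all 36088 probes with Benjamini-Hochberg adjustment and a threshold of 0.05. All 7 listed hepatocyte markers were measured and none was at the floor on all arrays, which was also true of the markers of every other listed cell type. Alb, the albumin gene that defines hepatocytes, had a log2 intensity of 10.40 ± 0.21 in ASO livers and 9.84 ± 0.59 in saline livers (SD, n = 5 each). Its difference of 0.57 ± 0.27 (SE) was the largest of these 7 hepatocyte markers. Of the 7, 5 were higher and 2 lower in ASO livers, Apob at -0.25 ± 0.24 and Hnf4a at -0.13 ± 0.18. Their median was 0.41, and 0 passed the adjusted threshold. The summed intensity of the 7 hepatocyte markers was 5075 to 6934 in ASO livers and 2497 to 5699 in saline livers. Saline replicate 1 gave the lowest sum and stands apart, with a brightest value of 542 against 1198 to 2333 on the other arrays. No marker read above this ceiling on that array, which limits the brightest, Alb, Apoa1, Ttr and Cyp2e1, at mean log2 levels of 10.04 to 10.12. These also had the largest differences of the 7, from 0.41 to 0.57, and the part of that array in them was not tested. All member intensities on that array lay well below this ceiling. Differences without it are printed for Tab2 and Rela, and the ranges given with each array left out include its removal.

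Tab2, the ubiquitin-reading adaptor of TAK1, was the member with the largest difference. The gene lies on chromosome 10 (GRCm38.p6, chr10:7905648-7956255), and the part of the transcript that the probe covers is not given in the sources used here. Tab2 intensity was 5.36, 7.69, 4.49, 5.82 and 5.75 in the 5 ASO livers, against 32.8, 36.2, 22.0, 22.1 and 11.4 in the 5 saline livers. The groups did not overlap, and the lowest saline liver, replicate 5, still lay above the highest ASO liver, replicate 2. The ASO livers were close to each other while the saline livers were spread widely, with 5.82 ± 1.17 in ASO livers and 24.9 ± 9.89 in saline livers (SD, n = 5 each). On the log2 scale the means were 2.52 ± 0.28 in ASO livers and 4.53 ± 0.66 in saline livers. The fitted difference was -2.01 ± 0.30 (SE), with a 95% interval from -2.66 to -1.36, which is a 4.03-fold lower level. This interval takes no account of Tab2 having been picked for its difference, and it is given as a description. In RNA from whole liver, fewer cells of a type and less RNA per cell cannot be told apart.

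The Tab2 probe was the 1 member probe of 9 past the adjusted threshold. Over all tested probes 23 passed (0.0637%), of which 12 were lower in ASO livers (0.0333%). Because Tab2 was chosen from this contrast, nothing is read from its place among them. The size of the difference was steady, from -2.27 to -1.85 when each array was left out in turn, and -1.88 without saline replicate 1. Its call was not steady, because it was lost on leaving out any array other than saline replicate 5. The number of calls over all probes fell to between 0 and 16 in the same refits, with none left when either ASO replicate 3 or saline replicate 2 was dropped. At an unadjusted p under 0.05 those refits still held 2829 to 5158 probes each, with the fewest when saline replicate 1 was dropped.

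**Figure D1:**
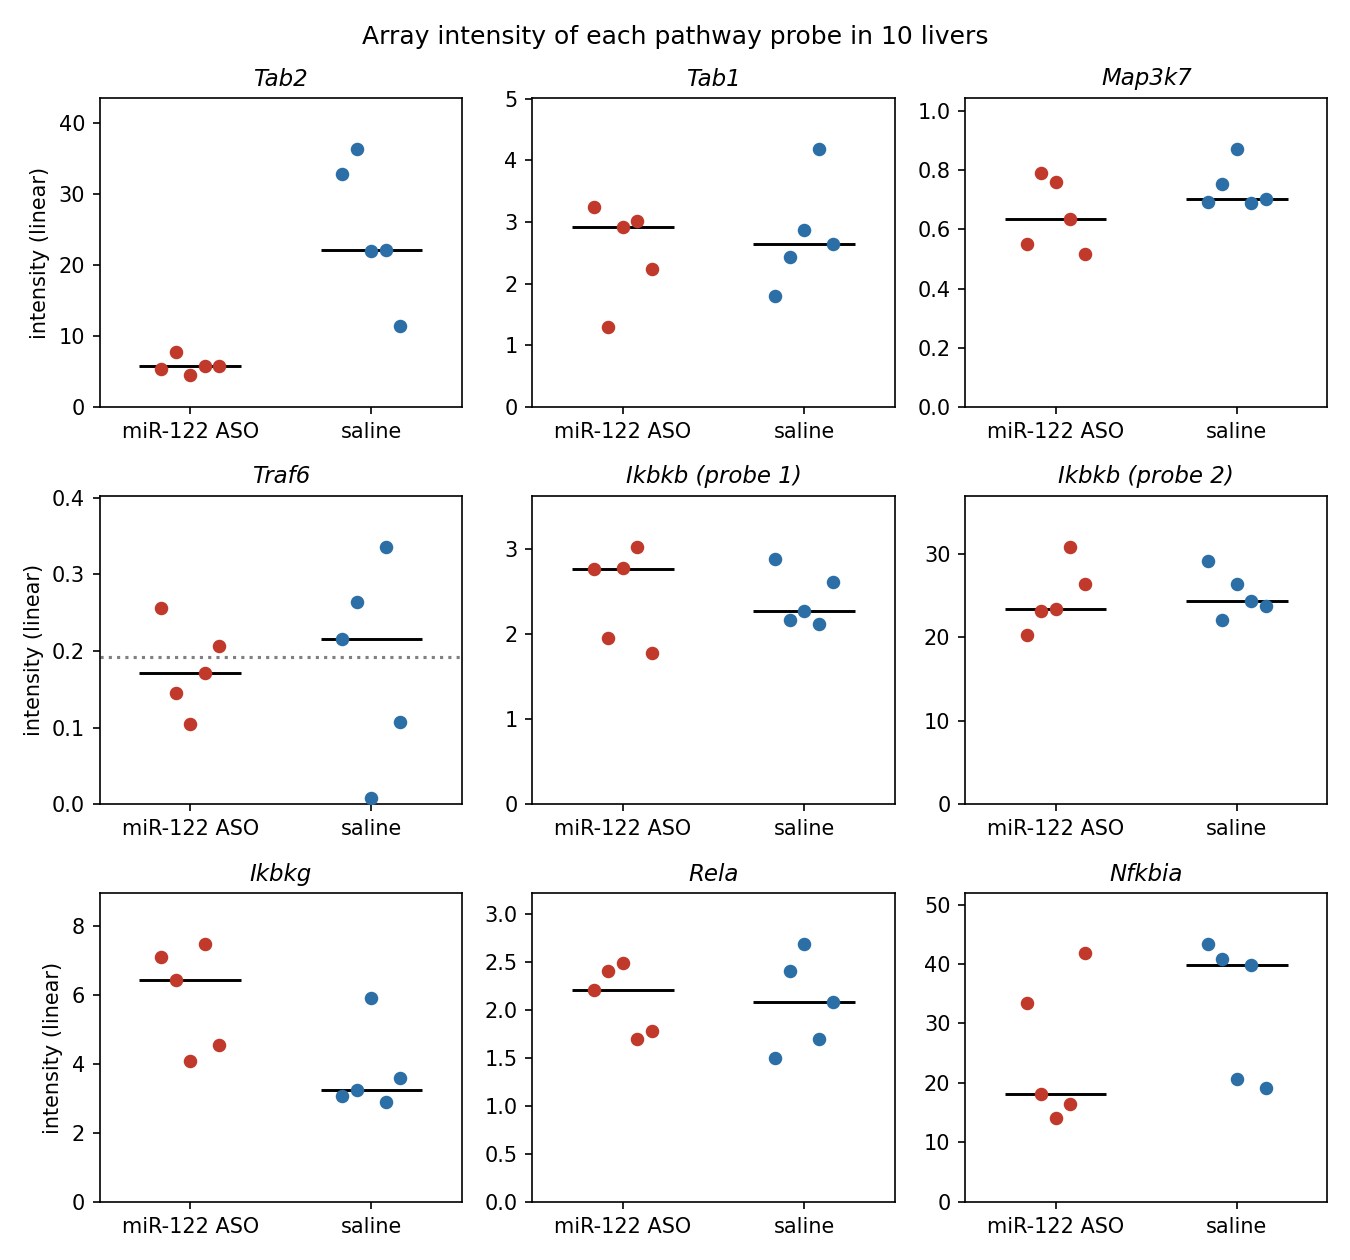
Intensity (linear, vertical axis from 0) of the 9 member probes in 5 miR-122 ASO livers (red, left) and 5 saline livers (blue, right), 1 point per liver in replicate order, with the group median as a black bar; the dotted line in the Traf6 panel is the floor of 0.192. The 5 ASO livers lie between 4.49 and 7.69 for Tab2, all below the saline livers at 11.4 to 36.2, and the groups overlap for the 8 other probes.

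**Figure D2:**
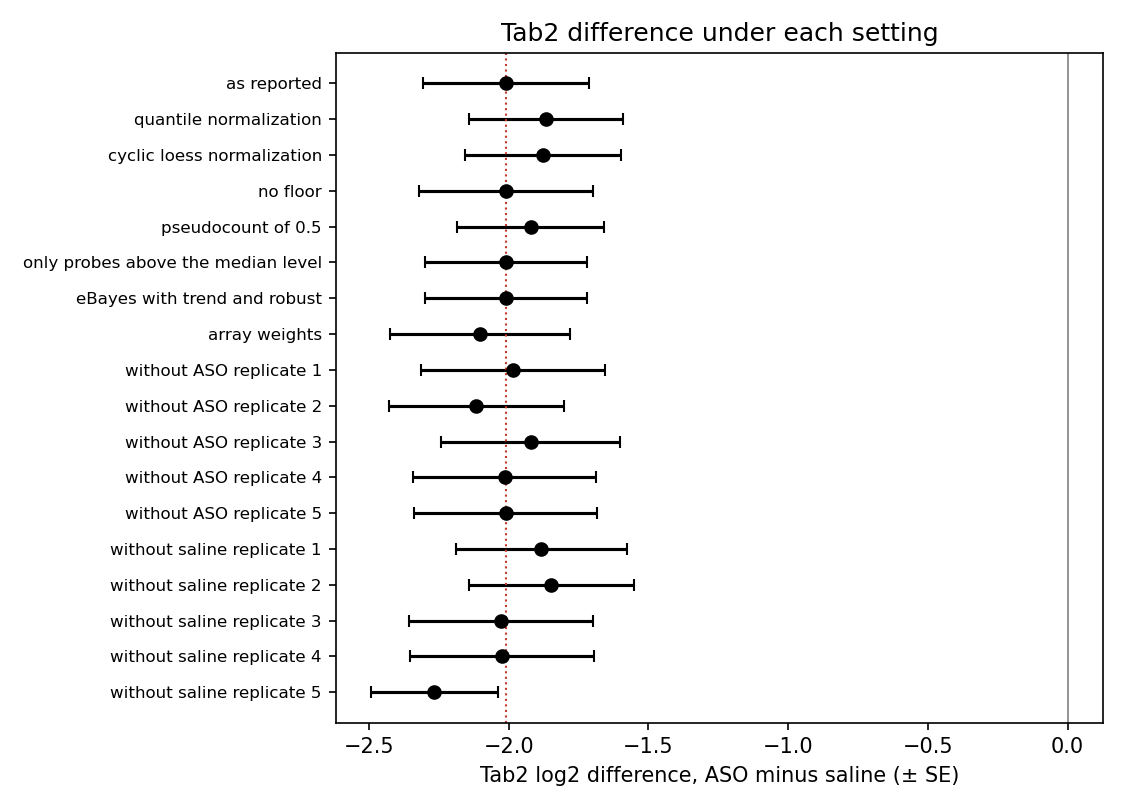
Tab2 difference on the log2 scale, ASO minus saline, with its SE as bars, under the reported setting, 7 other processing settings and with each array left out (rows), and the reported value as a dotted line. All values lie between -2.27 and -1.85.

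The partners of TAB2 in the TAK1 complex had overlapping groups. Tab1, which encodes the TAK1 activator, ran from 1.30 over a median of 2.92 to 3.24 in ASO livers and from 1.81 over 2.65 to 4.18 in saline livers. The Tab1 difference was -0.15 ± 0.29 (SE, limma adjusted p = 0.883), and without ASO replicate 2 or saline replicate 4 it was 0.08 or 0.01. Map3k7, the TAK1 gene, was dim on this array, with 0.517 to 0.789 in ASO livers (median 0.634) and 0.688 to 0.870 in saline livers (median 0.702). The Map3k7 difference was -0.21 ± 0.17 (adjusted p = 0.679). Tab3, a close relative of Tab2 with the same ubiquitin-reading role and no member, had a difference of -0.07 ± 0.19 (adjusted p = 0.919), with medians of 0.893 in ASO livers and 0.899 in saline livers. A gap like that of Tab2 was not seen in the probes of its complex partners or of Tab3, although differences between probes were not tested against each other. The Map3k7 and Tab3 probes, with mean log2 levels of -0.54 and -0.21, lay below the median level of all tested probes (0.03). Low signal limits what can be said of these 2 probes.

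Traf6, the ubiquitin ligase upstream, was at the edge of detection, and 3 of 5 ASO values and 2 of 5 saline values lay below the floor. Its intensities were 0.105 to 0.257 in ASO livers and 0.00858 to 0.336 in saline livers. The floored difference was -0.18 ± 0.19 (adjusted p = 0.758), and without the floor it was 0.59 ± 0.84, so no direction can be given for Traf6.

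Among the IKK subunits, Ikbkg had the second largest difference of the members and pointed upward. Ikbkg, the gene of the regulatory scaffold NEMO on the X chromosome (chrX:74393233-74456792), had 7.11, 6.45, 4.09, 7.47 and 4.55 in ASO livers, against 3.08, 3.25, 5.93, 2.89 and 3.59 in saline livers. Every ASO liver lay above 4 of the 5 saline livers, and the groups overlapped through saline replicate 3 alone. The Ikbkg difference was 0.68 ± 0.25 (SE), a 1.60-fold higher level with a 95% interval from 0.13 to 1.22. It did not pass (limma adjusted p = 0.355, unadjusted p = 0.0192), and at an unadjusted p under 0.05 there were 4057 of the 36088 probes (11.2%). The value stayed between 0.58 and 0.85 with each array left out, and its adjusted p ran from 0.239 to 0.624 over all settings.

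Ikbkb, the gene of the catalytic subunit IKKβ, was level in both groups at both of its probes. The first probe had 1.77 to 3.02 in ASO livers and 2.12 to 2.88 in saline livers, and the second had 20.3 to 30.8 in ASO livers and 22.0 to 29.2 in saline livers. Their differences were 0.01 ± 0.20 and -0.03 ± 0.16 (limma adjusted p = 0.994 and 0.972). The intervals ran from -0.42 to 0.43 and from -0.39 to 0.34, inside a change of 1.5-fold either way (0.58 on the log2 scale), the smallest change that the study was designed to detect. A difference of that size need not pass the adjusted threshold here, as that of Ikbkg at 1.60-fold did not.

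Rela, the gene of the p65 subunit of NF-kB, was also level, with 1.70 to 2.49 in ASO livers (median 2.21) and 1.50 to 2.68 in saline livers (median 2.08). The Rela difference was 0.04 ± 0.20 (SE, limma adjusted p = 0.958), with an interval from -0.40 to 0.49. In all, 4 of the 9 member probes, those of Map3k7, Rela and both of Ikbkb, had an interval inside 1.5-fold in either direction, Map3k7 only just, at -0.58 to 0.17.

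Nfkbia, the I-kBα gene, varied among mice of both groups. Its intensities were 33.4, 18.1, 14.1, 16.5 and 41.8 in ASO livers, against 43.3, 40.9, 20.6, 39.9 and 19.2 in saline livers. Low livers near 14 to 21 and high livers near 33 to 43 occurred in both groups, 3 low and 2 high in ASO and 2 low and 3 high in saline. The Nfkbia difference was -0.45 ± 0.36 (SE, limma adjusted p = 0.664), and its interval from -1.23 to 0.33 includes levels more than 1.5-fold lower in ASO livers. It was -0.28 without ASO replicate 3, -0.67 without ASO replicate 5 and -0.29 under quantile normalization.

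**Figure D3:**
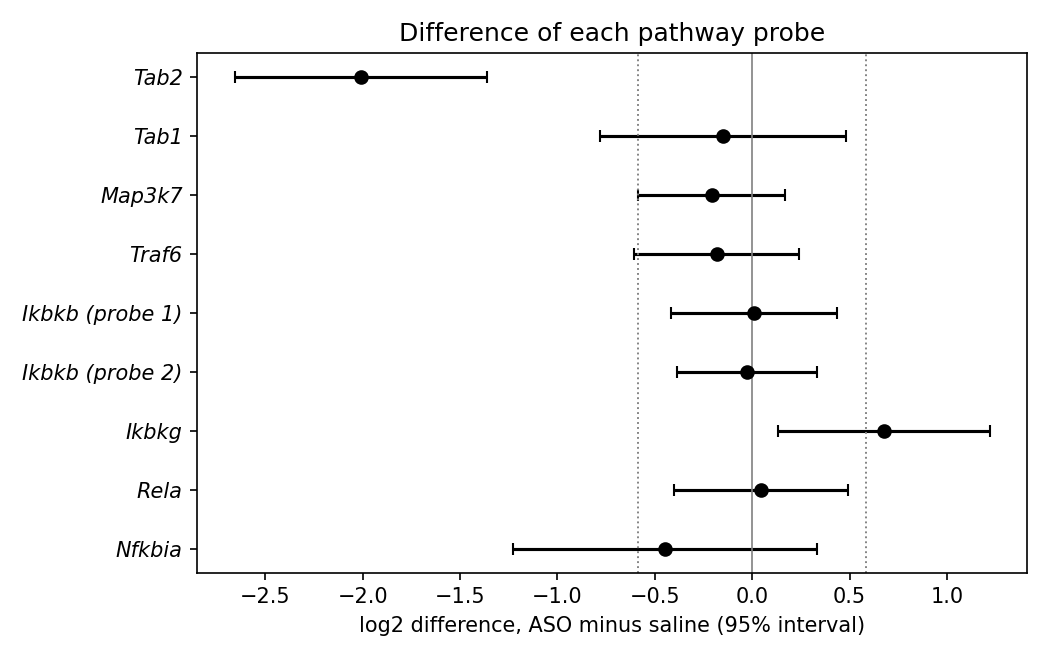
Difference on the log2 scale, ASO minus saline, of each member probe with its 95% interval (bars), and dotted lines at 1.5-fold in either direction. The Tab2 interval lies from -2.66 to -1.36 and the Ikbkg interval from 0.13 to 1.22, and the intervals of the 7 other probes include 0. The Tab2 interval is a description, because Tab2 was picked for this difference.

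Without Tab2, 0 of the 8 remaining member probes passed the adjusted threshold in limma and 1, Ikbkg, had an unadjusted p under 0.05. The median difference of these 8 was -0.09, beside 0.00 over all tested probes and -0.08 over the probes above the median level. The groups did not overlap for 0 of these 8, beside 854 of all 36088 probes (2.37%). With group means taken off, the correlation of Tab2 with the 8 other member probes over the 10 arrays ran from -0.461, with Tab1, to 0.497, with Nfkbia. Those points share arrays and scaling, and the correlations are given as a description.

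Genes whose pattern over the 10 arrays was most like that of Tab2 were found among 11445 single-gene probes above the median level. The closest 5 were Nubpl, an assembly factor of respiratory complex I (r = 0.963), Tspyl4 (r = 0.960), Nadk2, the mitochondrial NAD kinase (r = 0.948), Myoz3, a muscle Z-disc protein (r = 0.947), and Omd, a matrix proteoglycan (r = 0.938). All 5 were lower in ASO livers with groups that did not overlap, with differences of -0.62 ± 0.17, -1.39 ± 0.26, -0.79 ± 0.21, -1.42 ± 0.20 and -1.85 ± 0.26 (SE), and the likeness includes the gap between groups for which Tab2 was picked. With group means taken off, the closest 5 were Atf7ip (r = 0.953), Zfp358 (0.938), Sgta (0.919), Dpyd (0.917) and Calm2 (0.911). The calmodulin gene Calm2 and the pyrimidine-degrading Dpyd had differences of -0.16 ± 0.37 and -0.21 ± 0.27. Atf7ip and Sgta had 0.03 ± 0.25 and -0.04 ± 0.29. Zfp358, at 0.46 ± 0.17, was higher in ASO livers with groups that did not overlap, opposite to Tab2. The rank correlations of these 5 were lower, from 0.685 to 0.855. They are the top of 11445 candidates over 10 arrays and carry no test. None of these 10 genes belongs to the route or to the lists below.

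The wider route was described with 6 lists by role, each gene by its brightest probe. Of 118 listed genes 102 were measured, and 0 passed the adjusted threshold in limma. At an unadjusted p under 0.05 there were 12 (11.8%), 3 higher and 9 lower in ASO livers, a share near that of all probes (11.2%) and of the brightest probes of all 18012 genes (12.5%). The groups did not overlap for 3 of the 102 (2.94%), beside 2.37% of all probes. The median difference of the 102 was -0.10, against -0.04 over the brightest probes of all genes, and 65 of the 102 (63.7%) were below 0, beside 55.0% of the brightest probes of all genes and 59.9% of probes above the median level. These shares were not tested against each other.

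**Figure D4:**
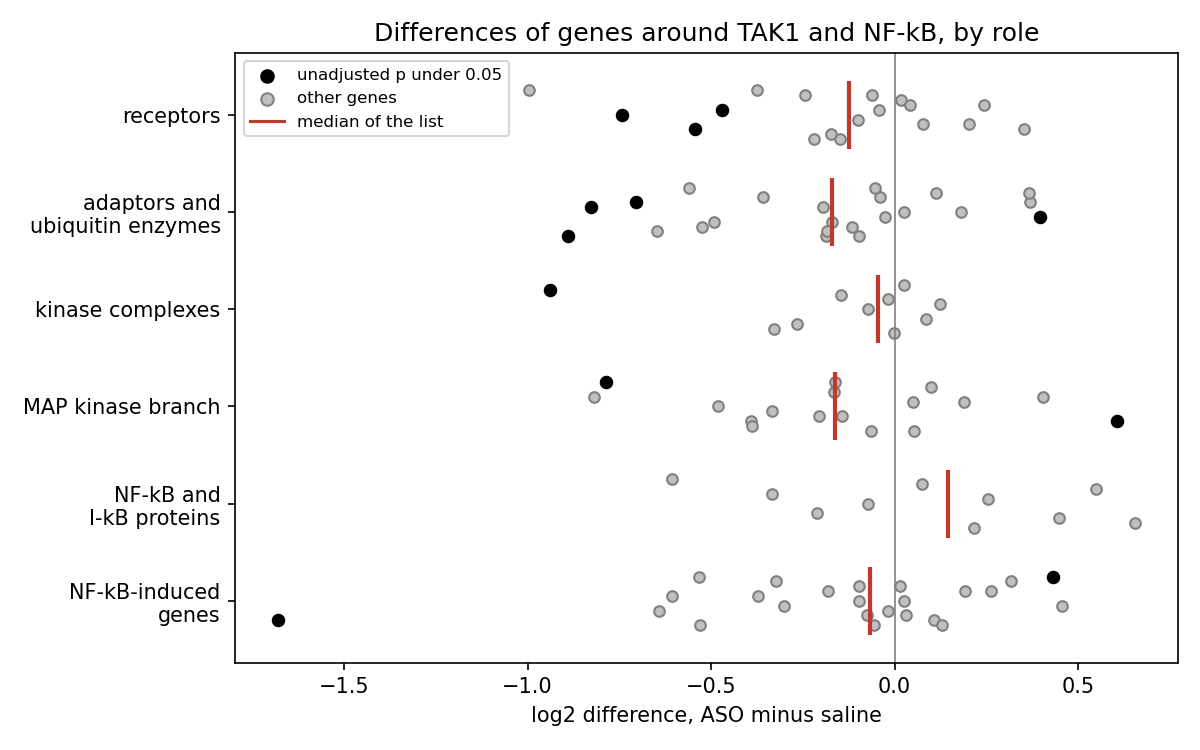
Difference on the log2 scale, ASO minus saline, of each measured gene (points) in 6 lists by role (rows), with the list median as a red line and genes at an unadjusted p under 0.05 in black. Most genes lie within 0.5 of 0, Cxcl10 stands alone at -1.68, and the list medians run from -0.17 to 0.15.

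Of the receptors and their helpers 12 of 18 measured genes (66.7%) were below 0, beside 55.0% of the brightest probes of all genes. Their median was -0.12 and 0 passed the adjusted threshold. At an unadjusted p under 0.05 in limma there were 3 (16.7%), all lower, beside 12.5% of the brightest probes of all genes. Ly96, which encodes MD-2, the lipopolysaccharide-binding partner of TLR4, had 2.36, 2.89, 4.42, 6.42 and 7.06 in ASO livers, against 8.39, 6.43, 5.42, 10.5 and 5.82 in saline livers, a difference of -0.74 ± 0.32 (SE, limma adjusted p = 0.426). Lbp, the lipopolysaccharide-binding protein that hepatocytes secrete, differed by -0.54 ± 0.23 (adjusted p = 0.416). Il1rap, the shared subunit of the interleukin-1 receptor, differed by -0.47 ± 0.21 at its brightest probe (adjusted p = 0.442), and its other probes gave -0.95 ± 0.30 and -0.34 ± 0.21.

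Of the adaptors and ubiquitin enzymes 17 of 23 measured genes (73.9%) were below 0, beside the same 55.0%. Their median was -0.17 and 0 passed the adjusted threshold. At an unadjusted p under 0.05 in limma 3 were lower and 1 higher (17.4%), beside the same 12.5%. Tnfaip3, which encodes the ubiquitin-editing inhibitor A20, had 3.24, 2.67, 1.15, 2.08 and 0.923 in ASO livers, against 3.52, 3.20, 3.90, 2.97 and 2.57 in saline livers. ASO replicates 3, 4 and 5 lay below all saline livers, and ASO replicates 1 and 2 lay among them. The Tnfaip3 difference was -0.83 ± 0.33 (SE, limma adjusted p = 0.383). Birc3, which encodes the ubiquitin ligase cIAP2, differed by -0.70 ± 0.28 (adjusted p = 0.388) at its brightest probe and by -0.40 ± 0.38 and 0.13 ± 0.20 at its others. Ube2v1, a partner in making the K63-linked chains that TAB2 reads, differed by -0.89 ± 0.39 (adjusted p = 0.425), with ASO replicates 3 and 4 at 0.691 and 0.778 and all other livers between 2.05 and 3.60.

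In the kinase complexes around TAK1 and IKK, 7 of 10 measured genes were below 0, with a median of -0.04 and 0 past the adjusted threshold. At an unadjusted p under 0.05 in limma there was 1 (10%), beside the same 12.5%. Ppm1b, a phosphatase known to act on TAK1 and IKKβ, had the smallest p of all listed genes. Ppm1b intensity was 23.3, 12.7, 13.6, 13.2 and 14.6 in ASO livers, against 37.9, 23.7, 29.7, 32.1 and 23.4 in saline livers, with no overlap between the groups. The Ppm1b difference was -0.94 ± 0.22 (SE, limma adjusted p = 0.171), and the adjusted p ran from 0.0799 to 0.405 over its alternatives. A dimmer second Ppm1b probe gave -0.06 ± 0.24, and the mean of both probes gave -0.50 ± 0.18. Nlk, a kinase downstream of TAK1, differed by -0.27 ± 0.24 (-0.08 without ASO replicate 3), and Tank, a partner of the kinase TBK1, by -0.33 ± 0.35 at its brightest probe and 0.63 ± 0.37 at its other.

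In the MAP kinase branch 11 of 17 measured genes were below 0, with a median of -0.16 and 0 past the adjusted threshold. At an unadjusted p under 0.05 in limma 1 was higher and 1 lower (11.8%), beside the same 12.5%. Mapkapk2, a kinase activated by p38, had 3.67, 5.15, 3.67, 5.22 and 3.26 in ASO livers, against 2.47, 2.58, 2.42, 3.18 and 2.93 in saline livers, with no overlap. The Mapkapk2 difference was 0.61 ± 0.19 (SE, limma adjusted p = 0.273), and a second, dim probe gave 0.06 ± 0.24. Mapk14, the p38α gene upstream of it, differed by -0.79 ± 0.25 (adjusted p = 0.288), with ASO livers at 1.93 to 4.37 and saline livers at 3.17 to 5.66. A dimmer second Mapk14 probe gave 0.43 ± 0.27, so the 2 Mapk14 probes pointed opposite ways. Atf3, a stress-induced transcription factor, differed by 0.40 ± 0.22 (adjusted p = 0.521).

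Of the other NF-kB and I-kB proteins 6 of 10 were above 0, with a median of 0.15, 0 past the adjusted threshold and 0 at an unadjusted p under 0.05 in limma. Rel, the c-Rel subunit, differed by 0.65 ± 0.32 (adjusted p = 0.472) and Relb, a subunit of the noncanonical route, by 0.55 ± 0.30 (adjusted p = 0.525). Nfkbib, the gene of I-kBβ, differed by -0.61 ± 0.36 (adjusted p = 0.556) and was -0.34 without ASO replicate 4.

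Genes that NF-kB is known to induce were spread around 0, with 10 of 24 above and 14 below, a median of -0.07 and 0 past the adjusted threshold in limma. At an unadjusted p under 0.05 in limma 1 was higher and 1 lower (8.33%), beside 12.5% of the brightest probes of all genes. Cxcl10, a chemokine gene induced by both interferon and NF-kB, had 1.36, 0.203, 0.789, 1.46 and 2.15 in ASO livers, against 2.79, 3.68, 3.84, 2.66 and 2.21 in saline livers. The groups did not overlap, though ASO replicate 5 and saline replicate 5 almost met. The Cxcl10 difference was -1.68 ± 0.52 (SE, adjusted p = 0.279) and -1.13 without ASO replicate 2. Il6, dim and measured in 4 ASO livers because ASO replicate 1 had no value, differed by 0.43 ± 0.18 (adjusted p = 0.411). Sod2, the mitochondrial superoxide dismutase, had 32.0 to 44.4 in ASO livers and 39.1 to 52.2 in saline livers, a difference of -0.30 ± 0.16 (adjusted p = 0.502). The cytokine genes Tnf and Il1b, early products of the route, differed by 0.13 ± 0.31 and -0.64 ± 0.45.

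Several of these genes are also expressed by liver macrophages, whose markers varied among the livers. The summed intensity of the 8 measured macrophage markers of 10 listed was 49.7 to 276 in ASO livers and 127 to 305 in saline livers, with none of the 8 at the floor on all arrays. The sum rests mostly on its brightest probes. Of the 8 single markers 5 differed by less than 0, 0 passed the adjusted threshold and the median difference was -0.26, with Mpeg1 at -1.45 ± 0.48 (SE, limma adjusted p = 0.298), C1qa at -0.67 ± 0.41 and the Kupffer cell marker Clec4f at -0.20 ± 0.25, while Adgre1 was at 0.26 ± 0.23. The summed intensity was lowest in ASO replicate 2. Of the ASO livers, this liver had the lowest Cxcl10, Birc3, Lbp, Mapk14 and Ppm1b. It also had the second highest Tnfaip3 and the highest Rel, Relb, Atf3, Sod2 and Tab2. Ly96, Nfkbia and Il1rap were lowest in other ASO livers. These examples were chosen around 1 liver and picked after their values were seen, so nothing is concluded from them. Lymphocyte markers (6 of 6 measured) summed to 6.24 to 8.70 in ASO livers and 8.58 to 12.3 in saline livers and overlapped only slightly. Of the 6, 4 were lower, Klrb1c at -0.91 ± 0.36, Ms4a1 at -0.57 ± 0.16, Cd79a at -0.51 ± 0.23 and Cd3g at -0.24 ± 0.21. Higher were 2, Nkg7 at 0.24 ± 0.23 and Cd3e at 0.06 ± 0.17. Of these 6, 0 passed the adjusted threshold and 1, Ms4a1, had groups that did not overlap (16.7%, beside 2.37% of all probes). Endothelial markers (6 of 6) summed to 31.7 to 94.4 in ASO livers and 40.5 to 73.8 in saline livers. Neutrophil, stellate and bile duct marker sums overlapped between the groups as well. The part of these cells in the differences of Tab2 and of the listed genes was not tested.

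The promoters below are shown because I-kBα, A20 and CXCL10 are outputs of NF-kB whose levels are given above, and Tab2 is the gene with the largest difference. Sequences are from RefSeq (GRCm38.p6) and run 5′ to 3′ from 250 bases before to 50 after an annotated start. Capitals mark matches to the NF-kB consensus, searched on both strands in every window.

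The Nfkbia window (chr12:55492598-55492897, minus strand) holds 1 match, which begins 29 bases before the start, and the Cxcl10 window (chr5:92348840-92349139, minus strand) holds 2 overlapping matches from 104 bases before it. Tnfaip3 has 2 annotated windows, and the one shown (chr10:19015361-19015660, minus strand) holds 1 match 12 bases before the start. The Tab2 window (chr10:7956074-7956373, minus strand) and a second Tab2 window hold no match.

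Nfkbia: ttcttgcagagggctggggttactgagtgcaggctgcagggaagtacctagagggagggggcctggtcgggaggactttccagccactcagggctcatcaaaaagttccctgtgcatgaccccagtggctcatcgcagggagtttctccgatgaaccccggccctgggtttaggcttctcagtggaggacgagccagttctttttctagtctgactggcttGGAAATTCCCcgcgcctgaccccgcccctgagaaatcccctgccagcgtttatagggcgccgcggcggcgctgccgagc

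Cxcl10: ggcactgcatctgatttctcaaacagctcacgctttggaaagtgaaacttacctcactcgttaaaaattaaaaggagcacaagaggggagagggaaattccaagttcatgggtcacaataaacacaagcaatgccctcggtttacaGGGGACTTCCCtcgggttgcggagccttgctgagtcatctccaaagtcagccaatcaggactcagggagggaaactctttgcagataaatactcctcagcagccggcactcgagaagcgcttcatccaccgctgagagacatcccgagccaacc

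Tnfaip3: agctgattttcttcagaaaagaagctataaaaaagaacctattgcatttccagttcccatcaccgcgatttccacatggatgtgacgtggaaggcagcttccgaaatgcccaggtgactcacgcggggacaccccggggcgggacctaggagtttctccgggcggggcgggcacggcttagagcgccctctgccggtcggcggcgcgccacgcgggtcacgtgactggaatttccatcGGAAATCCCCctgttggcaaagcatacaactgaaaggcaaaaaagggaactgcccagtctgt

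Tab2: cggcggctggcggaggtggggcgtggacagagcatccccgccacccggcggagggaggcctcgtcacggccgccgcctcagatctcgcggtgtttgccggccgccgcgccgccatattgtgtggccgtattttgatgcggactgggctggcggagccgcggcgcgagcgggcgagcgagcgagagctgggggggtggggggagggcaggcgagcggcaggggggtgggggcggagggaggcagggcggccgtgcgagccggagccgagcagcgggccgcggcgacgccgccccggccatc

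The consensus was found in at least 1 window of 1769 of 27025 genes (6.55%). Of the 7 member genes with a window in the table, 2 held it, Nfkbia and Map3k7. Of genes with a window in the other lists, 4 of 8 NF-kB and I-kB proteins (50%) and 3 of 9 kinase complex genes (33.3%) held it. It was held by 6 of 26 adaptors and ubiquitin enzymes (23.1%), 2 of 12 receptors (16.7%) and 3 of 20 MAP kinase branch genes (15%). Of the 24 NF-kB-induced genes with a window, 8 held it (33.3%), so this share was not particular to them. The 8, all measured, had a median difference of -0.10, with 1 higher (Il6) and 7 lower in ASO livers, and the 11 measured genes with no match had a median of 0.03, with 7 higher and 4 lower. Among the 8 were Cxcl10 at -1.68 and Cxcl1 at -0.10 ± 0.50. This split was made after the values had been seen and has no test, and a match to the consensus is a description of the letters in the window, not of binding.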

How the data were processed

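Liver RNA from 10 mice was labelled with biotin and measured on one-colour CodeLink arrays, per the labels' protocols. The authors deposited array intensities on a linear scale, already on a common median. How they were scanned, background-corrected and scaled is not given in the sources used here. Each array held 74 to 377 values of 0 or less. Array number limits the precision.

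Of 36227 probes, 139 with fewer than 3 values in a group were left out. Probes with 1 annotated gene (21615) were named, 681 had several and 13931 none, and 21487 matched a GRCm38.p6 gene table by Entrez ID. Intensities were floored at the 10th percentile of positive values (0.192), taken to log2 and fitted with limma 3.58.1 (lmFit, eBayes) in R 4.3.3 without covariates, two-sided, adjusted by Benjamini-Hochberg over all tested probes. Each array is 1 mouse, and the labels give no batch. Intervals are for single probes, not adjusted for their number.

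The members, lists, naming rule and alternatives were chosen with earlier results of these data known. All member probes were named, and from each list of the wider route the 3 genes with the smallest p. Tab3, Tnf, Il1b, Cxcl1 and the other probes of listed genes were chosen after their values were seen. The alternatives were quantile and cyclic loess normalization, no floor, a pseudocount of 0.5, array weights, eBayes with trend and robust, a filter to probes above the median level, the mean of a gene's probes, and leaving out each array. The fit was tested on simulated data.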

Additional observations from a re-analysis of the deposited data

Results flagged for a closer look

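Values of 1 liver far from the 4 others of its group were looked for, on floored log2 values, in 27 member and listed probes, and 3 of 54 groups held one. Chance alone gives about 5% of such groups. Traf6 in ASO replicate 1 was 0.257, against 0.105 to 0.207 in the other ASO livers, where 3 values lay below the floor. Those 3 values are tied once floored, so the Traf6 flag rests on the floor and the 5% does not cover it. Ppm1b in ASO replicate 1 was 23.3, against 12.7 to 14.6 in the other ASO livers, and came within reach of the lowest saline livers at 23.4 and 23.7. Il1rap in saline replicate 2 was 51.5, against 80.0 to 83.0 in the other saline livers, and lay within the range of the ASO livers.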

How the results depend on the processing

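The Tab2 difference stayed between -2.27 and -1.85 under all 17 alternatives, moving by less than the spread between mice, and its call was lost with no floor and with array weights (0 member probes past the threshold each). With each array left out, 0 to 1 member probes and 0 to 16 of all probes passed. The count over all probes was 39 with cyclic loess, 7 with no floor, 43 with the pseudocount, 73 with only probes above the median level and 42 with trend and robust, against 23 as reported. No gene of the wider route passed under any of its 18 alternatives. At an unadjusted p under 0.05 the probe-level refits held 2829 to 5158 probes over all levels, and 2587 of 18044 with only probes above the median level. Of 454 refitted values of 26 other probes, 435 kept their direction and side of the threshold and 19, of 6 probes, changed sign. These were the second Ikbkb probe (0.12 under quantile normalization, 0.10 under cyclic loess, 0.043 without ASO replicate 1, and -0.11 to 0.043 over all arrays left out) and Traf6 (0.59 with no floor). Rela was -0.013 with array weights, -0.064 without saline replicate 1 and at most 0.15 with an array left out. The first Ikbkb probe was -0.075 to 0.12 and Tab1 -0.29 to 0.076 with an array left out, and Tank was 0.15 as the mean of its probes, which point opposite ways. The cause of the other changes was not tested. No paired analysis was possible because the labels give the groups no shared replicate numbers. Traf6 and Map3k7 were too dim to be in the refit above the median level, and signal over background limits what can be said of both.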
